A study of Mus musculus with 25 samples.

Results

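Solute carriers are membrane proteins that move amino acids, sugars, ions, metals, vitamins and metabolites into and out of cells and organelles, and their mouse genes carry symbols that begin with Slc. The set described here holds every gene measured by a probe set with a single annotated symbol of Slc followed by a digit. The arrays held 148 such genes, and 3 further solute carrier genes are not analysed here. A gene was tested where at least 2 of the 25 arrays put it over their own 40th percentile, which left 112 of the 148, among 6919 genes of all kinds that passed the same filter. A gene with several probe sets was represented by the one with the highest mean log2 signal. Genes were sorted by main substrate from textbook knowledge. Of the 112, 19 carry amino acids and peptides, 5 sugars, 13 inorganic ions and 15 trace metals and haem. The 17 genes of family 25 are counted as mitochondrial carriers, although Slc25a17 is known from peroxisomes. Another 12 handle monocarboxylates and lipids, 18 amines, organic ions, vitamins and nucleosides, and 10 nucleotide sugars and other substrates of the Golgi. The last 3 are not transporters but partner proteins named after a carrier. A gene that passed the filter only through a group in which it was high had to differ there, so the counts below describe the 112 genes and not the 148. Slc2a1, Slc7a7, Slc7a8, Slc39a6 and Slc44a1 lay below that percentile in all controls and so passed through injured arrays. For them a lack of overlap with the controls adds no support.

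Muscle fibres draw glucose, amino acids, creatine, carnitine and phosphate from the blood through solute carriers of the plasma membrane. Their dense mitochondria exchange ADP for ATP, and malate for oxoglutarate, through carriers of family 25 in the inner membrane. Cells that enter injured muscle bring carriers of their own, among them a metal transporter of the macrophage phagosome.

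The tissue was the tibialis anterior, a fast leg muscle, of female C57BL/6J mice aged 2 to 3 months. Freeze injury was applied with a steel probe of 6 mm at dry ice temperature for 10 s, contraction injury was a bout of 150 eccentric contractions in vivo, and the control muscles were uninjured. Muscles were taken 6 hours, 1 day, 3 days or 7 days after freeze and at the same times after contraction, with 3 arrays in each group and in the controls, except 2 for freeze at 7 days and 2 for contraction at 1 day. Whether any samples shared a mouse is not stated, so p-values reflect how these samples scatter, which may be technical. Values are array signals on a common scale, changes are differences of log2(signal + 13) ± SE, which understates the change of dim genes, and a gene was called at an adjusted p under 0.05 in limma.

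One freeze array taken at 3 days, sample 436, lay among the controls. Over all 12488 probe sets, tested or not, it correlated at 0.947 to 0.952 with the controls and at 0.803 to 0.804 with the other freeze arrays of 3 days. The summed signal of 10 macrophage markers was 242 in sample 436 and 24911 to 25773 in the other freeze muscles of 3 days, against 321 to 460.3 in controls. The summed signal of 8 muscle fibre markers was 138576 in sample 436 and 25129 to 33626 in the others, against 83853 to 139869 in controls. No marker on either list was at 0 on any array. The label of sample 436 was kept, and the freeze results of 3 days are given with and without it. All groups share 1 estimate of the spread, so sample 436 bears on every test. The median residual SD over the tested probe sets was 0.323 without it, against 0.385 with all 25 arrays, and more genes were called in every comparison.

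With all 25 arrays, 27 of the 112 solute carrier genes were called against control in at least 1 injured group, 15 of them higher and 12 lower, and none in both directions. The share of all probe sets called in at least 1 group was not counted, so 27 cannot be set against the whole array. At 6 hours after freeze 5 genes rose and 0 fell (4.46% of the 112), beside 3.33% of all 9506 probe sets higher and 1.51% lower, 4.85% in all. By 1 day after freeze 11 genes rose and 4 fell (13.4% of the 112), beside 9.15% of the probe sets higher and 5.06% lower, 14.2% in all. On day 3 after freeze 5 genes rose and 6 fell (9.82% of the 112), beside 9.68% of the probe sets higher and 8.18% lower, 17.9% in all. At the last time, 7 days after freeze, 1 gene rose and 2 fell (2.68% of the 112), beside 3.65% of the probe sets higher and 1.64% lower, 5.29% in all. At 6 hours after contraction 3 genes rose and 1 fell (3.57% of the 112), beside 1.63% of the probe sets higher and 0.242% lower, 1.87% in all. By 1 day after contraction 2 genes rose and 0 fell (1.79% of the 112), beside 1.63% of the probe sets higher and 0.158% lower, 1.79% in all. On day 3 after contraction 4 genes rose and 4 fell (7.14% of the 112), beside 5.67% of the probe sets higher and 2.58% lower, 8.25% in all. At the last time, 7 days after contraction, 0 genes rose and 1 fell (0.893% of the 112), beside 0.473% of the probe sets higher and 0.0631% lower, 0.537% in all. Fitted on all 25 arrays, the share was below that of the whole array at 3 and 7 days after freeze and above it at 6 hours after contraction, but 3 genes make up the count at 7 days and 4 that at 6 hours. A moderated F test of any change after injury called 35 of the 112 genes (31.2%), against 26.2% of all probe sets. The 8 comparisons share the 3 control arrays. The ratio of the 3' to the 5' probe set of actin, a sign of RNA quality, also differed. It lay between 0.657 and 0.955 at 6 hours, 1.01 and 1.31 at 1 day, 0.741 and 1.09 at 3 days and 0.776 and 0.808 at 7 days after freeze. After contraction it lay between 0.572 and 0.669 at 6 hours, 0.617 and 0.641 at 1 day, 0.923 and 1.21 at 3 days and 0.522 and 0.716 at 7 days, against 0.56 to 0.595 in controls. It reached its highest value at 1 day after freeze, and its part in the calls was not tested.

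Without sample 436 the genes called higher and lower after freeze numbered 12 and 1 at 6 hours (6.42% and 4.98% of the probe sets, 11.4% in all), and 18 and 10 at 1 day (14.8% and 12% of the probe sets, 26.8% in all). Later they numbered 22 and 22 at 3 days (21.6% and 20.8% of the probe sets, 42.4% in all) and 8 and 12 at 7 days (11.7% and 7.83% of the probe sets, 19.5% in all). Those after contraction numbered 5 and 2 at 6 hours (2.52% and 0.831% of the probe sets, 3.36% in all), and 3 and 1 at 1 day (3.25% and 1.08% of the probe sets, 4.33% in all). From 3 days on they were 16 and 7 at 3 days (13.1% and 9.69% of the probe sets, 22.8% in all) and 0 and 2 at 7 days (2.24% and 0.789% of the probe sets, 3.03% in all). The share of the 112 was then 11.6%, 25%, 39.3% and 17.9% at the 4 times after freeze and 6.25%, 3.57%, 20.5% and 1.79% after contraction. The shares at 3 and 7 days after freeze thus lay near those of the whole array without sample 436. In all, 60 of the 112 genes were then called in at least 1 group, again with no share of all probe sets counted. The F test called 58 of the 112 (51.8%), against 49.3% of all probe sets. Other single arrays moved the counts too. The 11 calls of freeze at 3 days became 0 without sample 450 or sample 468, 5 without control sample 1 or control sample 3, and 3 without control sample 2. The 15 calls of freeze at 1 day became 8 without sample 422, sample 464 or control sample 1, 7 without sample 460, 6 without control sample 2 and 9 without control sample 3. The 8 calls of contraction at 3 days became 2 without sample 435 or control sample 3, 1 without sample 467, 3 without control sample 2 and 0 without control sample 1. At 6 hours the 5 calls of freeze became 3 without sample 418 or sample 446, and the 4 calls of contraction became 2 without sample 417, control sample 2 or control sample 3. The 2 calls of contraction at 1 day became 1 without sample 421, sample 463 or control sample 2. At 7 days the 3 calls of freeze became 1 without sample 440, sample 454 or control sample 1, and the 1 call of contraction became 0 without sample 439, sample 453, control sample 1 or control sample 2.

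**Figure D1:**
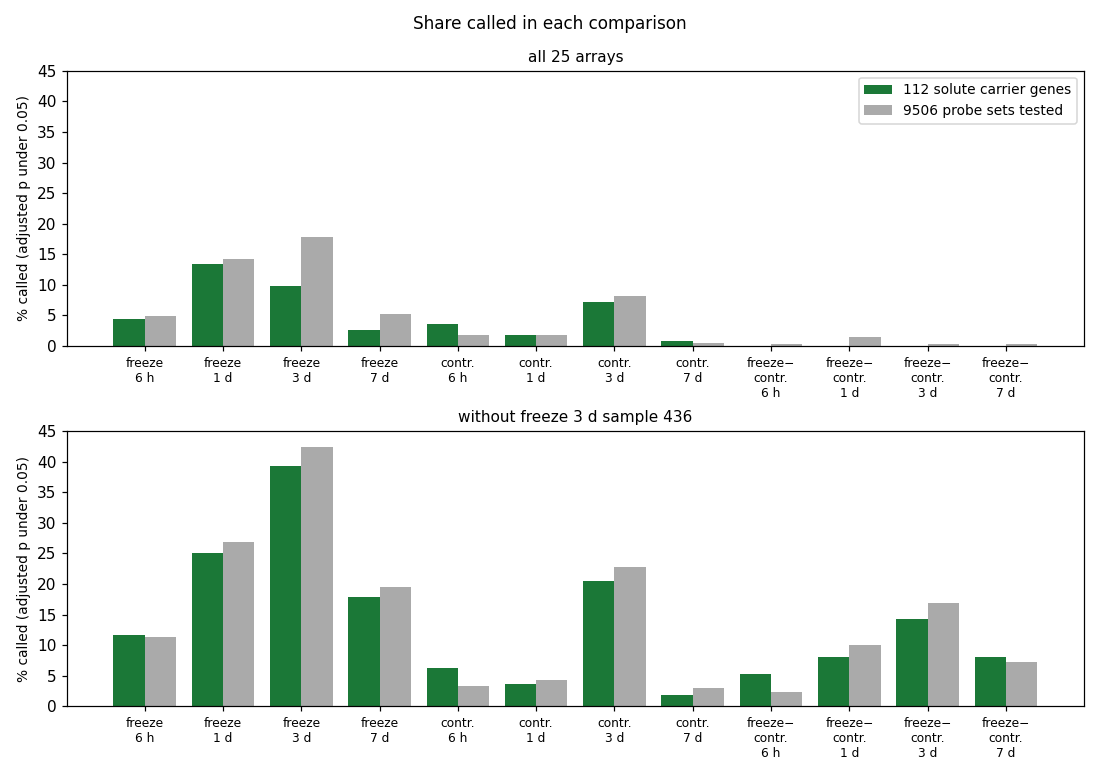
Percent of the 112 solute carrier genes and of all 9506 tested probe sets called at an adjusted p under 0.05 in each of the 12 comparisons, with all 25 arrays and without sample 436. With all 25 arrays the genes reach 13.4% at 1 day after freeze, against 14.2% of all probe sets, and 0 in each freeze minus contraction comparison.

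**Figure D2:**
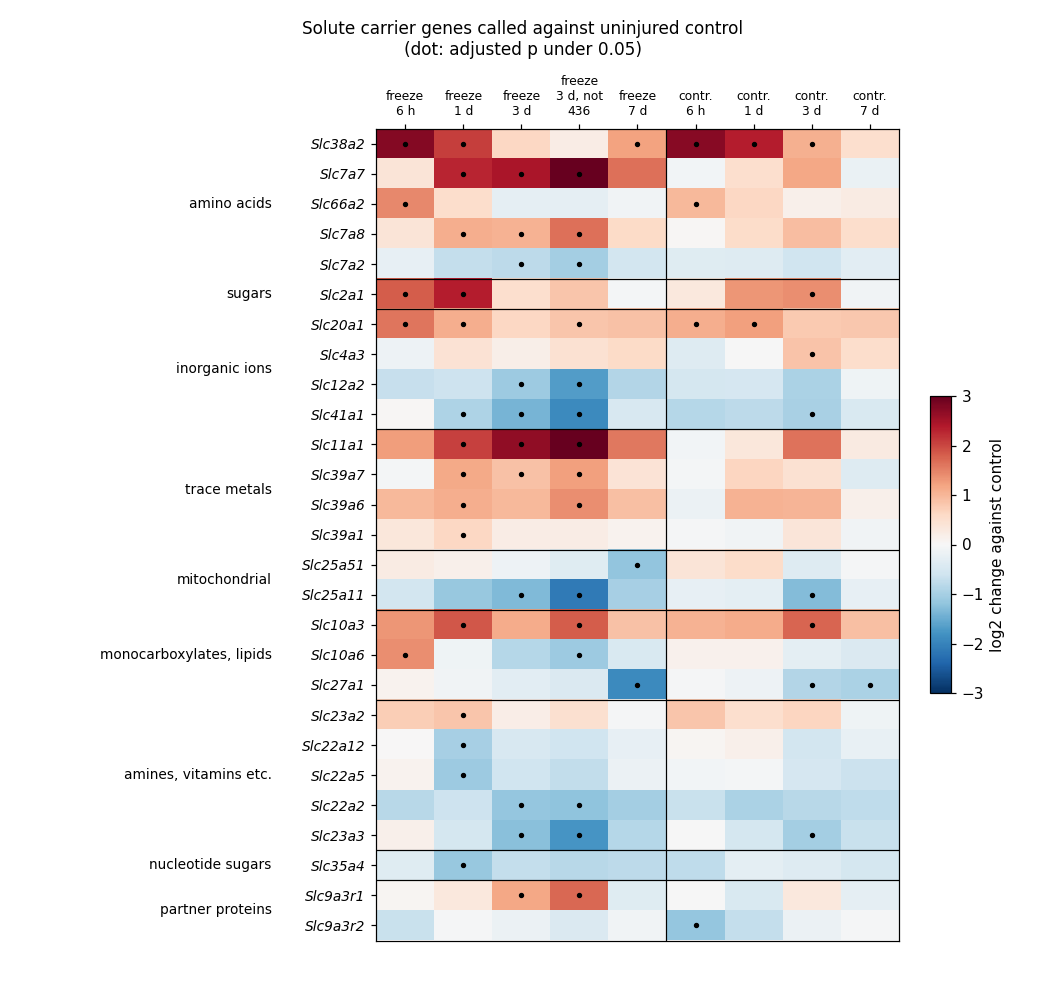
Log2 change against control of the 27 solute carrier genes called with all 25 arrays, by substrate class (rows) and injured group (columns), with a further column for freeze at 3 days without sample 436. The colour scale ends at 3 in either direction, so Slc7a7 and Slc11a1 lie beyond it in that column, and Slc38a2 has the highest value at 6 hours, 2.75 after freeze and 2.73 after contraction.

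Among the 19 amino acid and peptide carriers the early rise after both injuries lay in Slc38a2 and Slc66a2, and the later rise after freeze in Slc7a7 and Slc7a8. Fitted on all 25 arrays, 2 rose and 0 fell at 6 hours after freeze, 3 and 0 at 1 day, 2 and 1 at 3 days, and 1 and 0 at 7 days. Of all probe sets 3.33%, 9.15%, 9.68% and 3.65% rose and 1.51%, 5.06%, 8.18% and 1.64% fell at these times. After contraction 2 rose at 6 hours, 1 at 1 day, 1 at 3 days, none at 7 days, and 0 fell. The class had a median change of 0.23 at 6 hours after freeze, where the median of all probe sets was -0.04, and of -0.27 at 3 days, where that of all probe sets was -0.09. The median at 3 days was -0.28 without sample 436, and 5 rose and 1 fell at 6 hours after freeze, 6 and 2 at 1 day, 6 and 5 at 3 days, and 2 and 2 at 7 days. After contraction 5 then rose at 3 days and 1 fell at 7 days. Of all probe sets 6.42%, 14.8%, 21.6% and 11.7% rose and 4.98%, 12%, 20.8% and 7.83% fell at the 4 times after freeze in that fit. The counts of this and the later classes and lists are to be read beside the shares of all probe sets given above for each comparison.

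Slc38a2 encodes SNAT2, a sodium-coupled importer of small neutral amino acids whose mRNA is known to rise when cells lack amino acids or face osmotic stress. Its signal was 1261, 971 and 1598 at 6 hours after freeze and 778, 751 and 812 at 1 day, against 139.8, 234 and 161 in controls. At 3 days after freeze it was 224 and 190.0, and 476 in sample 436, and at 7 days it was 429.6 and 408. After contraction it was 1199, 1307 and 1182 at 6 hours, 892 and 992 at 1 day, 295, 424 and 429 at 3 days and 255, 315 and 204 at 7 days. Every array of 6 hours and 1 day lay above every control in both injuries, while the groups of 3 days after freeze and 7 days after contraction overlapped the controls. The log2 change at 6 hours was 2.75 ± 0.27 after freeze (6.75-fold, adjusted p = 4.16e-07) and 2.73 ± 0.27 after contraction (6.63-fold, adjusted p = 4.5e-07). At 1 day it was 2.08 ± 0.27 after freeze (adjusted p = 3.46e-05) and 2.35 ± 0.30 after contraction (adjusted p = 3.23e-05). These 4 calls were kept with each array of their comparison left out in turn. The change at 3 days after freeze was 0.61 ± 0.27 (adjusted p = 0.107), and 0.23 ± 0.22 without sample 436. The smaller rises at 3 days after contraction (1.06 ± 0.27, adjusted p = 0.02) and at 7 days after freeze (1.20 ± 0.30, adjusted p = 0.0241) depended on single arrays. The call at 3 days was lost without sample 449, sample 467, control sample 1 or control sample 3 (adjusted p 0.0544 to 0.083), and the call at 7 days was lost without sample 440, sample 454, control sample 1 or control sample 3 (adjusted p 0.0746 to 0.21). A second, dim probe set of the gene was called in none of these comparisons, with changes of -0.76 at 1 day after contraction and -0.61 at 1 day after freeze.

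Slc66a2 encodes a PQ-loop membrane protein related to the lysosomal exporter of cationic amino acids Slc66a1. It followed the same early course, with signals of 845, 686 and 771 at 6 hours after freeze and 491, 625 and 534 at 6 hours after contraction, against 326, 198 and 307 in controls. All injured arrays of 6 hours lay above all controls. The gene rose by 1.45 ± 0.19 after freeze (2.74-fold, adjusted p = 1.69e-05) and by 0.98 ± 0.19 after contraction (1.97-fold, adjusted p = 0.00316), calls that were kept with each array of their comparison left out. By 3 days the arrays of both injuries overlapped the controls, with changes of -0.27 ± 0.19 after freeze, -0.28 ± 0.20 without sample 436, and 0.16 ± 0.19 after contraction.

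Slc7a7 encodes y+LAT1, a light chain that exchanges cationic for neutral amino acids and is known from macrophages and epithelia. Its signal was 8.3, 10.6 and 46.8 at 6 hours after freeze, 74.4, 115 and 129 at 1 day, 317 and 283 at 3 days with 9.6 in sample 436, and 55.2 and 69 at 7 days, against 10.4, 9.6 and 12.4 in controls. In contraction muscles it was 11.1, 5.7 and 11.8 at 6 hours, 35.2 and 10.4 at 1 day, 73.2, 10.8 and 60.3 at 3 days and 7.1, 4.7 and 11.8 at 7 days. The freeze arrays from 1 day on lay above all controls apart from sample 436, whereas each contraction group overlapped the controls. The change after freeze was 2.29 ± 0.68 at 1 day (adjusted p = 0.0289) and 2.45 ± 0.68 at 3 days (adjusted p = 0.0224), and 3.72 ± 0.46 at 3 days without sample 436 (13.2-fold, adjusted p = 7.07e-07). The call at 1 day was lost without sample 460, sample 464, control sample 1, control sample 2 or control sample 3 (adjusted p 0.0634 to 0.0977), and that at 3 days was lost with any 1 of the other 5 arrays left out (adjusted p 0.051 to 0.179). The macrophage markers were high in the same freeze groups and at 3 days after contraction, where Slc7a7 was 73.2, 10.8 and 60.3. Their summed signal lay between 5516 and 8194 at 1 day after freeze, 24911 and 25773 at 3 days without sample 436, 6879 and 7400 at 7 days, and 8456 and 12675 at 3 days after contraction, against 321 to 460.3 in controls. With all 25 arrays 7 of the 10 markers rose at 1 day after freeze, 9 at 3 days (10 without sample 436), 7 at 7 days, and 9 at 3 days after contraction. The part of these cells in the rise was not tested, and in whole muscle more cells of a type cannot be told apart from more RNA per cell, nor fewer from less.

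Slc7a8 encodes LAT2, a further light chain for neutral amino acids. It gave 59.2, 81.1 and 63.2 at 1 day and 97.2 and 113 at 3 days after freeze, 20.4 in sample 436, and 55.1, 51 and 68.9 at 3 days after contraction, against 21.2, 27.9 and 24.9 in controls. These groups lay above the controls apart from sample 436. The rise after freeze was 1.10 ± 0.36 at 1 day (adjusted p = 0.044) and 1.04 ± 0.36 at 3 days (adjusted p = 0.0472), 1.65 ± 0.28 without sample 436 (adjusted p = 4.34e-05). The call at 1 day was lost with any 1 of the 6 arrays left out (adjusted p 0.0707 to 0.133), and that at 3 days lost with any 1 of the other 5 arrays left out (adjusted p 0.0768 to 0.297). The change at 3 days after contraction was 0.92 ± 0.36 (adjusted p = 0.106, and 0.0094 without sample 436).

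The 1 gene of the class that fell at 3 days after freeze with all 25 arrays was Slc7a2, a carrier of arginine and other cationic amino acids. Its signal was 96.7 and 73.1, and 147 in sample 436, against 219, 174 and 164 in controls, without overlap. The change was -0.78 ± 0.26 (adjusted p = 0.0414) and -1.02 ± 0.26 without sample 436 (adjusted p = 0.0028). The call was lost with any 1 of the other 5 arrays left out (adjusted p 0.0641 to 0.251).

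Without sample 436, 6 amino acid carriers rose and 5 fell at 3 days after freeze, some of which were not called with it. Slc7a5 and Slc3a2 together form LAT1, the exchanger that brings leucine and other large neutral amino acids into growing cells. Slc7a5 gave 458 and 443 in the freeze muscles of 3 days, and 133 in sample 436, against 209, 136 and 231 in controls. Slc3a2, the heavy chain, gave 672 and 807, and 236 in sample 436, against 367, 338 and 319 in controls. Their changes were 0.65 ± 0.32 and 0.55 ± 0.30 with all 25 arrays (adjusted p = 0.152 and 0.192), and 1.21 ± 0.23 and 1.08 ± 0.21 without sample 436 (adjusted p = 0.000185 and 0.000167). Without sample 436 both also rose at 3 days after contraction, by 0.63 ± 0.21 and 0.58 ± 0.18 (adjusted p = 0.0307 and 0.0258), and Slc3a2 fell at 7 days after contraction (-0.73 ± 0.18, adjusted p = 0.0291). Slc1a5, a glutamine and neutral amino acid exchanger, had a change of 1.04 ± 0.31 at 6 hours after freeze, with adjusted p = 0.0585 and 0.00835 without sample 436. In the other direction Slc38a5, the SNAT5 carrier of glutamine, gave 101 and 84.5 at 3 days after freeze, and 544 in sample 436, against 598, 315 and 423 in controls (-2.07 ± 0.40 without sample 436, adjusted p = 0.000201, and -1.27 ± 0.51 with it, adjusted p = 0.0794).

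The amino acid response is a gene programme in which the factor Atf4 raises amino acid synthesis and uptake genes, Slc38a2 among them. Of 15 genes listed for it, 13 were tested. In the fit of all 25 arrays 2 rose at 6 hours after freeze, 4 at 1 day, 2 at 3 days and 0 at 7 days, and 2, 3, 2 and 0 rose at the same times after contraction, while 1 fell at 3 and at 7 days after freeze and 1 at 7 days after contraction. Without sample 436, 5, 4, 4 and 2 rose and 0, 1, 2 and 1 fell at the 4 times after freeze, and 2, 5, 2 and 1 rose and 0, 0, 0 and 2 fell after contraction. Atf4 itself rose by 1.31 ± 0.23 at 6 hours after freeze (adjusted p = 0.000808) and by 1.11 ± 0.23 after contraction (adjusted p = 0.00712). Psat1, an enzyme of serine synthesis, rose by 3.87 ± 0.81 at 1 day after freeze (adjusted p = 0.00353) and by 3.21 ± 0.81 at 3 days after contraction (adjusted p = 0.0202). Asparagine synthetase, Asns, changed by 0.36 ± 0.29 at 3 days after freeze (adjusted p = 0.391) and by 0.76 ± 0.25 without sample 436 (adjusted p = 0.0151). It was called in no comparison with all 25 arrays, with 0.65 ± 0.29 at 6 hours after freeze (adjusted p = 0.24) and 0.03 ± 0.29 after contraction (adjusted p = 0.989).

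The promoter windows of the early gene Slc38a2 and the later gene Slc7a7 were read from RefSeq on build GRCm38.p6, each from 250 bases before to 50 bases after an annotated start. They are shown because Atf4 binds composite sites of the letters TGATGNAA, sought here on both strands and set in capitals. The windows are chr15:96699679-96699978 on the minus strand for Slc38a2 and chr14:54417895-54418194 on the minus strand for Slc7a7.
Slc38a2: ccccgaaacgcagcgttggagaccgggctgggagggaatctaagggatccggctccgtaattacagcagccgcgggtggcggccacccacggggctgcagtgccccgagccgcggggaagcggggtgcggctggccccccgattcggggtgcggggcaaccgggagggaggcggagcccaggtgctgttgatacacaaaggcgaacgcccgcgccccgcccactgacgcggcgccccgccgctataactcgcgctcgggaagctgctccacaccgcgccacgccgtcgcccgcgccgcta
Slc7a7: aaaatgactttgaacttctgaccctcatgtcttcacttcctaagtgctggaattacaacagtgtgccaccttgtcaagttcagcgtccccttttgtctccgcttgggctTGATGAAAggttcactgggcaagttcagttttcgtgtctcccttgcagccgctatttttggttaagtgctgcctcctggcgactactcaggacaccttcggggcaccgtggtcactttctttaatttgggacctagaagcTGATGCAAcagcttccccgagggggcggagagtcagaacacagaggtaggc
The Slc38a2 window held 0 matches, and the Slc7a7 window, 1 of 5 annotated for that gene, held 2. Among the other windows of Slc7a7, 1 held 1 match and the rest held 0. Such a match was present in 3.97% of all 32851 promoter windows and in 5 of the 134 windows of the 92 matched solute carrier genes (3.73%). Sites outside the windows were not sought, so a window with 0 matches does not show that a gene lacks one.

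Of the 5 sugar carriers, Slc2a1 alone was called. It encodes GLUT1, the insulin-independent glucose transporter of most cells. Its signal was 116, 70.1 and 136 at 6 hours and 181, 122 and 172 at 1 day after freeze, 34.3 and 60.4 at 3 days with 16.9 in sample 436, and 30.9 and 9.9 at 7 days, against 20.2, 11.2 and 31.7 in controls. After contraction it was 16.4, 77.2 and 13.5 at 6 hours, 58.6 and 83.4 at 1 day, 73.3, 68.5 and 80.0 at 3 days and 38.1, 13.8 and 8.5 at 7 days. Freeze arrays were above all controls at 6 hours and 1 day, and contraction arrays at 1 day and 3 days, while both injuries overlapped the controls at 7 days. The rise was 1.82 ± 0.43 at 6 hours after freeze (adjusted p = 0.0124), 2.36 ± 0.43 at 1 day after freeze (5.13-fold, adjusted p = 0.00125) and 1.40 ± 0.43 at 3 days after contraction (adjusted p = 0.0478). The call at 1 day after freeze was kept with each array of the comparison left out in turn, the call at 6 hours was lost without sample 418, sample 446 or control sample 2 (adjusted p 0.0536 to 0.0774), and the call after contraction was lost with any 1 of the 6 arrays left out (adjusted p 0.0661 to 0.138). At 1 day after contraction the change was 1.33 ± 0.48 (adjusted p = 0.253). Slc2a3, a high-affinity glucose transporter of neurons and blood cells, lay between -0.24 ± 0.31 at 3 days and 0.42 ± 0.31 at 6 hours after freeze with all 25 arrays and was not called. Without sample 436 it was -0.08 ± 0.33 at 3 days (adjusted p = 0.861). Neutrophil markers were also high at 6 hours and 1 day after freeze. Their summed signal over 6 genes lay between 3127 and 5125 at 6 hours and between 2154 and 3819 at 1 day after freeze, against 317 to 665 in controls, with 5 of the 6 markers risen at 6 hours and 4 at 1 day. At 3 days after contraction, where Slc2a1 also rose, it lay between 273 and 336, and at 1 day after contraction between 394 and 395, with 0 of the 6 markers called at either time. At 6 hours after contraction it was 348.5, 2060.1 and 390.8 on the arrays where Slc2a1 was 16.4, 77.2 and 13.5. The part of the neutrophil markers in the rise of Slc2a1 was not tested.

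Of the 13 inorganic ion carriers, 1 rose with all 25 arrays at 6 hours after freeze, 1 rose and 1 fell at 1 day, 0 rose and 2 fell at 3 days, and none was called at 7 days. The shares of all probe sets at these times were 3.33%, 9.15%, 9.68% and 3.65% higher and 1.51%, 5.06%, 8.18% and 1.64% lower. After contraction 1 rose at 6 hours and 1 at 1 day, 1 rose and 1 fell at 3 days, and none was called at 7 days. The median change was -0.31 at 3 days after freeze, -0.45 without sample 436, and -0.34 at 7 days. Without sample 436, 1 rose at 6 hours after freeze, 2 rose and 2 fell at 1 day, 3 rose and 3 fell at 3 days, and 1 rose and 1 fell at 7 days. At 3 days after freeze 21.6% of all probe sets rose and 20.8% fell in that fit. After contraction 1 rose and 1 fell at 6 hours and again at 1 day, and 3 rose and 2 fell at 3 days.

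Slc20a1 encodes PiT-1, a sodium-coupled phosphate importer. It was 225, 142 and 278 at 6 hours after freeze, 132, 191 and 107 at 1 day, 114 and 115 at 3 days with 71.6 in sample 436, and 116 and 123 at 7 days, against 70.3, 65.4 and 44.2 in controls. Contraction muscles gave 183, 133 and 115 at 6 hours, 166 and 146 at 1 day, 126, 126 and 85.7 at 3 days and 140.0, 111 and 93 at 7 days. Every injured array, sample 436 included, was above every control. The rise was 1.61 ± 0.26 at 6 hours after freeze (3.06-fold, adjusted p = 0.000441) and 1.08 ± 0.26 at 1 day (adjusted p = 0.00988). After contraction it was 1.10 ± 0.26 at 6 hours (adjusted p = 0.029) and 1.23 ± 0.30 at 1 day (adjusted p = 0.0299). The call at 6 hours after freeze was kept with each array of the comparison left out in turn, and the call at 1 day was lost without sample 460 or control sample 3 (adjusted p 0.0506 to 0.0609). After contraction the call at 6 hours was lost without sample 417, sample 431, control sample 2 or control sample 3 (adjusted p 0.0592 to 0.178), and that at 1 day lost without sample 421, sample 463, control sample 2 or control sample 3 (adjusted p 0.0566 to 0.271). At the later times the changes lay between 0.63 ± 0.26 at 3 days and 0.88 ± 0.30 at 7 days after freeze, with 0.79 ± 0.26 and 0.81 ± 0.26 after contraction, and none was called with all 25 arrays. Without sample 436 the changes at 3 days after freeze (0.83 ± 0.28, adjusted p = 0.0185), at 7 days after freeze (adjusted p = 0.0284) and at 3 days after contraction (adjusted p = 0.0236) were called.

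The promoter window of Slc20a1, again from RefSeq on GRCm38.p6, chr2:129198523-129198822 on the plus strand, is shown because the gene was above control on every injured array. The palindrome CACGTG, an E-box that basic helix-loop-helix factors such as Myc bind, is in capitals.
Slc20a1: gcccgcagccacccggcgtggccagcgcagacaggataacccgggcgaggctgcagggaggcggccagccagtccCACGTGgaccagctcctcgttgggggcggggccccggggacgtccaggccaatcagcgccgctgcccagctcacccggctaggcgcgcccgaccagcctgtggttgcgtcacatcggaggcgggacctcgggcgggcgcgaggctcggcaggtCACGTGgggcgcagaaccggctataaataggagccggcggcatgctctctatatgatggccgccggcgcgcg
It held 2 matches, while the window of the other annotated start held 0. Of all promoter windows 7.15% held the letters CACGTG, and of the 134 windows of solute carrier genes 13 did (9.7%).

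Slc41a1, a magnesium transporter, fell. Its signal was 436, 357 and 528 at 6 hours, 177, 217 and 271 at 1 day, 99.3 and 107 at 3 days with 326 in sample 436, and 323 and 281 at 7 days after freeze, against 389, 417 and 475 in controls. In contraction muscles it was 185, 259 and 250.5 at 6 hours, 200.3 and 288 at 1 day, 175, 271 and 192 at 3 days and 334, 299 and 286 at 7 days. All 4 contraction groups lay below the controls, and so did freeze from 1 day on, sample 436 included, while freeze at 6 hours overlapped them. The change after freeze was -0.92 ± 0.30 at 1 day (adjusted p = 0.0445) and -1.40 ± 0.30 at 3 days (2.64-fold lower, adjusted p = 0.0109), -1.91 ± 0.22 without sample 436. After contraction it was -0.98 ± 0.30 at 3 days (adjusted p = 0.0478). The call at 1 day after freeze was lost with any 1 of the 6 arrays left out (adjusted p 0.0588 to 0.139), that at 3 days lost without sample 450 or sample 468 (adjusted p 0.102 to 0.116), and that after contraction lost without sample 435, sample 467, control sample 1, control sample 2 or control sample 3 (adjusted p 0.0864 to 0.178).

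Slc12a2, the sodium, potassium and chloride cotransporter NKCC1, was 229.9 and 238 at 3 days after freeze and 846 in sample 436, against 567, 696 and 1192 in controls. Without sample 436 the groups did not overlap. The change was -1.08 ± 0.35 (adjusted p = 0.04) and -1.68 ± 0.26 without sample 436 (adjusted p = 1.29e-05), and the call was lost without sample 450, sample 468, control sample 2 or control sample 3 (adjusted p 0.0643 to 0.252). Slc4a3, the chloride and bicarbonate exchanger AE3 of excitable cells, was 487, 213 and 248 at 3 days after contraction, against 152, 143 and 176 in controls. All 3 arrays were above the controls, sample 435 by the widest margin, and the rise was 0.87 ± 0.25 (adjusted p = 0.0376), lost without sample 435, sample 467, control sample 1, control sample 2 or control sample 3 (adjusted p 0.0591 to 0.228). Without sample 436, Slc12a7, a potassium and chloride cotransporter, rose at 3 days after freeze (1.15 ± 0.27, adjusted p = 0.00131) and at 3 days after contraction (0.84 ± 0.24, adjusted p = 0.0137).

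The sodium pump and partner proteins that carriers need were listed as 12 genes outside the Slc symbols, of which 7 were tested. There were 3 rises and 2 falls with all 25 arrays at 1 day and again at 3 days after freeze, 1 rose at 3 days after contraction, and none was called in the other groups. Without sample 436, 2 rose at 6 hours, 3 rose and 3 fell at 1 day and again at 3 days, and 2 rose at 7 days after freeze, and 2 rose and 3 fell at 3 days after contraction. Fxyd5, a regulator of the sodium pump, rose by 2.94 ± 0.56 at 1 day after freeze (adjusted p = 0.00174) and by 1.93 ± 0.56 at 3 days after contraction (adjusted p = 0.0374). Fxyd1, phospholemman of striated muscle, fell at 3 days after freeze (-1.76 ± 0.43, adjusted p = 0.0147, and -2.59 ± 0.23 without sample 436), and Bsg, the chaperone of monocarboxylate carriers, fell at 1 day (-0.81 ± 0.27, adjusted p = 0.0457).

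Among the 15 carriers of trace metals and haem 4 rose and 0 fell at 1 day after freeze, where 9.15% of all probe sets rose and 5.06% fell. The median change of the class was 0.47, while the median of all probe sets was -0.07. At 3 days after freeze 2 rose and 0 fell with a median of 0.22, or 0.23 without sample 436, and at 6 hours and 7 days none was called, with medians of 0.13 and 0.24. After contraction none of the 15 was called at any time, and the median was 0.25 at 3 days. In the fit without sample 436 the class had 2 rises at 6 hours after freeze, 5 rises and 0 falls at 1 day, 5 and 2 at 3 days, 2 and 0 at 7 days, and 3 and 1 at 3 days after contraction. Of all probe sets 14.8% rose and 12% fell at 1 day, and 21.6% and 20.8% at 3 days after freeze, in that fit.

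Slc11a1, known as Nramp1, pumps iron and manganese out of the phagosomes of macrophages and neutrophils. Its signal after freeze was 111, 88.5 and 124 at 6 hours, 176, 179.8 and 230.3 at 1 day, 713 and 744 at 3 days with 45.8 in sample 436, and 133 and 144 at 7 days, against 22.3, 42 and 52.7 in controls. Contraction muscles had 12.6, 75.7 and 34.7 at 6 hours, 39.8 and 64.3 at 1 day, 174, 95.8 and 173 at 3 days and 37.9, 62.7 and 45 at 7 days. Apart from sample 436, which lay within the controls, all freeze arrays were above them, as were the contraction arrays of 3 days. The rise was 2.04 ± 0.62 at 1 day after freeze (adjusted p = 0.0328) and 2.66 ± 0.62 at 3 days (6.33-fold, adjusted p = 0.0143), 3.88 ± 0.37 without sample 436 (14.7-fold, adjusted p = 1.72e-08). The call at 1 day was lost with any 1 of the 6 arrays left out (adjusted p 0.0527 to 0.115), and that at 3 days was lost without sample 450 or sample 468 (adjusted p 0.126 to 0.128). The change at 3 days after contraction was 1.63 ± 0.62, with adjusted p = 0.099 and 0.000808 without sample 436. Apart from sample 436, the summed macrophage markers given for Slc7a7 were also above the controls in these groups. Their part in the rise of Slc11a1 was not tested.

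The ZIP family brings zinc into the cytosol, and 3 of its genes rose at 1 day after freeze. Slc39a7, or ZIP7, which releases zinc from the endoplasmic reticulum and Golgi, was 551, 569 and 527 at 1 day and 551 and 614 at 3 days after freeze, and 276 in sample 436, against 234, 218 and 274 in controls. The freeze arrays of 1 and 3 days were above all controls, sample 436 by little. Its rise was 1.14 ± 0.24 at 1 day (2.21-fold, adjusted p = 0.0033), kept with each array of the comparison left out in turn. At 3 days it was 0.88 ± 0.24 (adjusted p = 0.0199) and 1.23 ± 0.20 without sample 436, and that call was lost without sample 450, sample 468, control sample 1 or control sample 2 (adjusted p 0.0549 to 0.159). Slc39a6, or ZIP6 of the plasma membrane, was 53.7, 73.6 and 63.6 at 1 day after freeze, against 30.4, 28.6 and 11.9 in controls, a rise of 1.10 ± 0.35 (adjusted p = 0.0377) that was lost without sample 422, sample 460, sample 464, control sample 2 or control sample 3 (adjusted p 0.0523 to 0.15). Slc39a1, or ZIP1, was 624, 682 and 526, against 354, 315 and 519 in controls, a rise of 0.63 ± 0.21 (adjusted p = 0.046) that was lost without sample 422, sample 460, sample 464, control sample 1 or control sample 2 (adjusted p 0.0599 to 0.168). A second, dimmer probe set of Slc39a1 was not called and had a change of -0.27.

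Copper and zinc carriers were also called without sample 436. Slc31a1, the high-affinity copper importer, was 258, 248 and 239 at 1 day and 380.0 and 366 at 3 days after freeze, and 96.6 in sample 436, against 96, 127 and 165 in controls. It did not overlap the controls apart from sample 436, and its rise was 1.47 ± 0.21 at 3 days (adjusted p = 4.06e-06), against 0.86 ± 0.32 (adjusted p = 0.064) with all 25 arrays. A second probe set, nearly as bright, was not called, with 0.30 ± 0.26 (adjusted p = 0.376) at 3 days without sample 436 and 0.18 ± 0.24 (adjusted p = 0.616) with it, so the rise rests on 1 of 2 probe sets. Slc30a9 of the zinc exporter family was 40.5 and 61.3, and 175 in sample 436, against 107, 153 and 156 in controls, a change of -0.72 ± 0.34 (adjusted p = 0.132) and of -1.25 ± 0.28 without sample 436 (adjusted p = 0.000922).

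Among 10 metal handling genes outside the Slc symbols, 8 were tested. At 6 hours after freeze 4 rose and 1 fell with all 25 arrays, while 3 rose at 1 day, 3 at 3 days and 0 at 7 days. After contraction 2 rose at 6 hours, 2 at 1 day, 2 at 3 days, then 1 at 7 days. Without sample 436, 4, 4, 3 and 3 rose at the 4 times after freeze, 1 fell at 6 hours, and 3, 3, 3 and 2 rose after contraction. The metallothioneins bind zinc and copper in the cytosol, and Mt1 rose by 5.92 ± 0.52 at 6 hours after freeze (adjusted p = 9.37e-08) and by 5.42 ± 0.52 at 1 day (adjusted p = 1.31e-06). Haem oxygenase, Hmox1, which frees iron from haem, rose by 2.08 ± 0.43 at 6 hours (adjusted p = 0.00431) and by 2.14 ± 0.43 at 1 day after freeze (adjusted p = 0.00269). Metallothionein genes are known targets of a factor that reads TGCACNC or TGCGCNC, and 47 of the 134 promoter windows of solute carrier genes held these letters on either strand (35.1%), beside 25.7% of all windows.

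**Figure D3:**
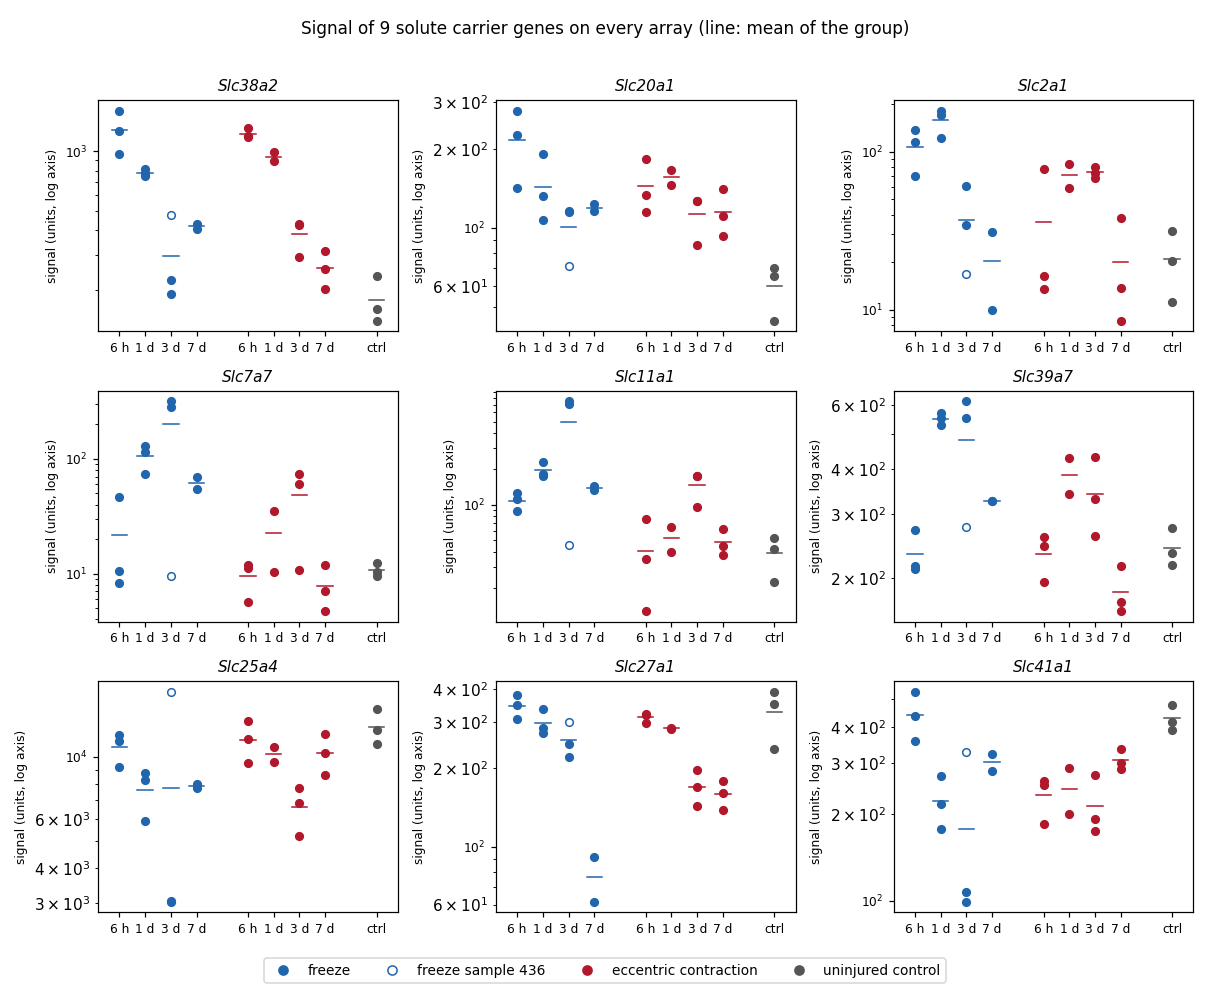
Signals of 9 solute carrier genes on every array (log axis, array signal units) in the freeze, contraction and control groups, with points for arrays, lines for group means and an open circle for sample 436. Slc20a1 is above control on every injured array, and in Slc7a7, Slc11a1 and Slc25a4 sample 436 lies apart from the other freeze muscles of 3 days.

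Among the 17 mitochondrial carriers no gene rose in any comparison with all 25 arrays. There 1 fell at 3 days after freeze, 1 at 7 days after freeze and 1 at 3 days after contraction. Of all probe sets 8.18%, 1.64% and 2.58% fell in these groups. The median change of the class was -0.24 at 1 day, -0.09 at 3 days and -0.51 at 7 days after freeze, and -0.36 at 3 days after contraction, while the medians of all probe sets were -0.07, -0.09, -0.07 and -0.06. Without sample 436, 2 rose and 6 fell at 3 days after freeze, with a median of -0.20, 2 fell at 1 day and 5 at 7 days after freeze, and 2 fell at 3 days after contraction. In that fit 21.6% of all probe sets rose and 20.8% fell at 3 days after freeze. The shares that fell were 12% at 1 day and 7.83% at 7 days after freeze, and 9.69% at 3 days after contraction.

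Slc25a11 exchanges oxoglutarate for malate across the inner membrane as part of the malate and aspartate shuttle. Its signal was 996, 1180.4 and 1378 at 6 hours, 816, 635 and 918 at 1 day, 408 and 373 at 3 days with 2023 in sample 436, and 973 and 765 at 7 days after freeze, against 1786, 1781 and 1622 in controls. In contraction muscles it was 1609.5, 1492 and 1268 at 6 hours, 1274 and 1575 at 1 day, 501, 908 and 722 at 3 days and 1429, 1372 and 1578 at 7 days. Every injured array but sample 436 lay below every control, and sample 436 was the highest of all. The change was -1.33 ± 0.39 at 3 days after freeze (adjusted p = 0.0274), -2.11 ± 0.21 without sample 436 (4.32-fold lower, adjusted p = 3.68e-08), and -1.31 ± 0.39 at 3 days after contraction (adjusted p = 0.044). The call after freeze was lost with any 1 of the other 5 arrays left out (adjusted p 0.0581 to 0.211), and the call after contraction was lost without sample 435, sample 467, control sample 1, control sample 2 or control sample 3 (adjusted p 0.0908 to 0.184).

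Slc25a4 encodes ANT1, the adenine nucleotide translocator of heart and skeletal muscle that exports ATP from mitochondria. It was 9156, 11369.9 and 11932 at 6 hours, 8730.0, 5904 and 8262 at 1 day, 3052 and 3039 at 3 days with 17045 in sample 436, and 7981 and 7737 at 7 days after freeze, against 11072, 14781 and 12492 in controls. At 3 days after contraction it was 5231, 7729 and 6816. Those groups of 1, 3 and 7 days were below the controls without overlap, apart from sample 436, which was above all controls. With all 25 arrays the change at 3 days after freeze was -1.23 ± 0.44 and not called (adjusted p = 0.0542), and without sample 436 it was -2.05 ± 0.23 (4.15-fold lower, adjusted p = 1.52e-07). Without sample 436 the gene also fell at 3 days after contraction (-0.96 ± 0.20, adjusted p = 0.00127, against 0.165 with all 25 arrays). The summed muscle fibre markers lay between 53191 and 73624 at 3 days after contraction, between 52916 and 87987 at 1 day after freeze, and between 25129 and 33626 at 3 days after freeze without sample 436, against 83853 to 139869 in controls. Of the 8 markers 4 fell at 3 days after freeze with all 25 arrays and 8 without sample 436. The part of these markers' fall in that of the carriers was not tested. The actin ratio was also above that of the controls at 3 days after either injury, and its part was not tested.

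Slc25a5 encodes ANT2, the translocator of proliferating cells, and its probe sets disagreed. The brightest had a change of -0.06 ± 0.28 at 1 day after freeze (adjusted p = 0.911), while 2 dimmer probe sets rose by 1.52 (adjusted p = 0.0222) and 1.27 (adjusted p = 0.0402). Slc25a51, a mitochondrial NAD carrier, was 134 and 66.7 at 7 days after freeze, against 313, 320.1 and 123 in controls. Control sample 3 lay between the injured muscles, so the groups overlapped. A dimmer probe set of the gene had a change of -0.58 ± 0.31 (adjusted p = 0.25) and was not called. The change of the brighter one was -1.18 ± 0.34 (adjusted p = 0.0481), and the call was lost without sample 440, sample 454, control sample 1 or control sample 2 (adjusted p 0.0926 to 0.371). Without sample 436, 2 carriers of metabolite export rose at 3 days after freeze. The citrate carrier Slc25a1 changed by 0.55 ± 0.20 (adjusted p = 0.0318, against 0.906 with all 25 arrays) on its brighter probe set and by -0.0045 ± 0.36 (adjusted p = 0.993) on the other, and the dicarboxylate carrier Slc25a10 changed by 1.19 ± 0.43 (adjusted p = 0.0306, against 0.475). Slc25a15, which carries ornithine, Slc25a28, the iron carrier mitoferrin 2, and Slc25a25, which exchanges ATP-magnesium for phosphate, fell without sample 436, with changes of -0.87 ± 0.26, -0.62 ± 0.20 and -0.91 ± 0.34 (adjusted p = 0.00888, 0.014 and 0.0353).

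Of 15 mitochondrial transport genes with other symbols, 9 were tested, and 1 rose and 1 fell at 1 day and again at 3 days after freeze, 1 rose at 3 days after contraction, and none was called in the other groups with all 25 arrays. Without sample 436, 1 fell at 6 hours, 2 rose and 3 fell at 1 day, 2 rose and 4 fell at 3 days and 1 rose at 7 days after freeze, while 2 rose and 2 fell at 3 days and 1 rose at 7 days after contraction. The uncoupling protein gene Ucp3 fell at 1 day after freeze (-1.38 ± 0.44, adjusted p = 0.0411) and at 3 days (-1.47 ± 0.44, adjusted p = 0.0293, and -2.34 ± 0.26 without sample 436). Tspo, an outer membrane protein known to be high in activated macrophages, rose by 1.11 ± 0.35 at 3 days after freeze (adjusted p = 0.0372, and 1.79 ± 0.20 without sample 436) and by 1.27 ± 0.35 at 3 days after contraction (adjusted p = 0.0333).

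**Figure D4:**
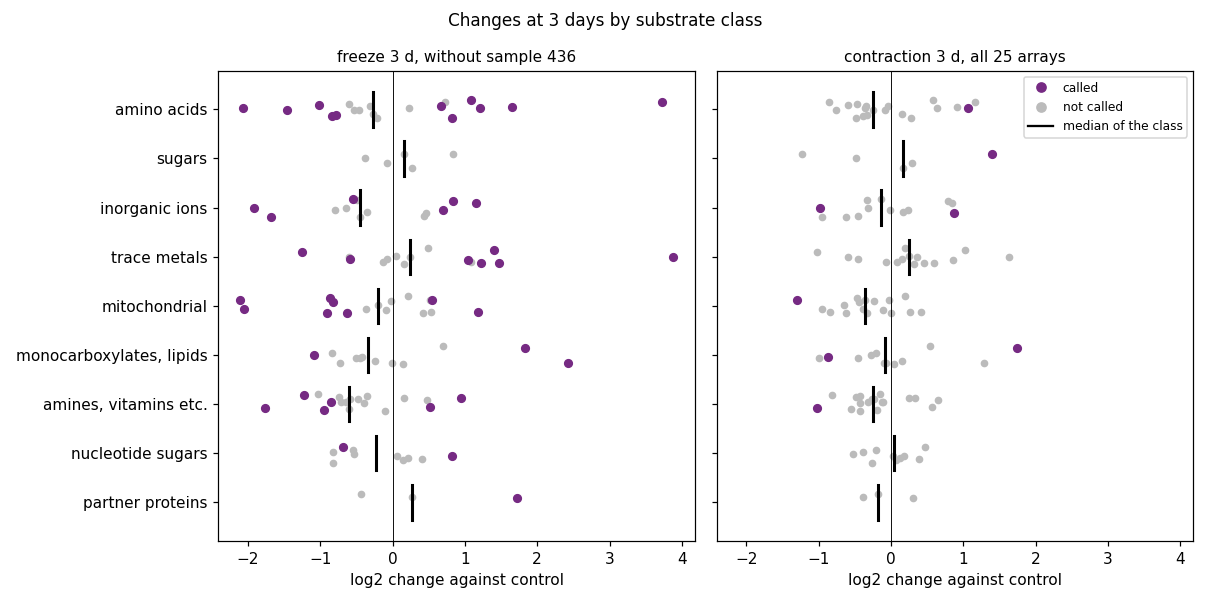
Log2 change against control of each of the 112 solute carrier genes by substrate class at 3 days, after freeze without sample 436 on the left and after contraction with all 25 arrays on the right, with filled points for called genes and bars for class medians. After freeze the metal carriers have a median of 0.23 and the mitochondrial carriers of -0.20, while called genes lie on both sides of 0 in most classes.

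Among the 12 monocarboxylate and lipid carriers Slc27a1, Slc10a3 and Slc10a6 were called with all 25 arrays. Without sample 436, 2 rose at 6 hours, 2 rose and 1 fell at 1 day and again at 3 days, and 1 rose and 1 fell at 7 days after freeze, and 1, 1, 2 and 0 rose and 0, 0, 1 and 1 fell at the 4 times after contraction. Slc27a1, or FATP1, takes up long-chain fatty acids in muscle and fat. Its signal was 306, 379 and 349 at 6 hours, 273, 284 and 336 at 1 day, 247 and 221 at 3 days with 299 in sample 436, and 91.6 and 61.5 at 7 days after freeze, against 391, 352 and 236 in controls. The contraction muscles gave 320.5, 318 and 297 at 6 hours, 285 and 283 at 1 day, 169, 196 and 144 at 3 days and 178, 138 and 160.0 at 7 days. The early groups overlapped the controls, and the groups of 7 days after either injury and of 3 days after contraction lay below them. The change was -1.91 ± 0.22 at 7 days after freeze (3.76-fold lower, adjusted p = 2.37e-05), kept with each array of the comparison left out in turn. It was -0.88 ± 0.19 at 3 days after contraction (adjusted p = 0.0103) and -0.96 ± 0.19 at 7 days (adjusted p = 0.0222), the 1 call of that group. The call at 3 days was lost without sample 467 or control sample 1 (adjusted p 0.0548 to 0.0582), and that at 7 days lost without sample 439, sample 453, control sample 1 or control sample 2 (adjusted p 0.0936 to 0.158).

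Slc10a3, an orphan of the bile acid carrier family, was 128, 139 and 132 at 6 hours, 272, 162 and 177 at 1 day, 185 and 201 at 3 days with 34.9 in sample 436, and 71 and 122 at 7 days after freeze, against 25.7, 65.7 and 51.5 in controls. After contraction the values were 91, 95 and 138 at 6 hours, 114 and 111 at 1 day, 234, 137 and 184 at 3 days and 106, 89.3 and 90.7 at 7 days. Every injured array but sample 436 was above every control. The rise was 1.86 ± 0.40 at 1 day after freeze (3.64-fold, adjusted p = 0.00408) and 1.74 ± 0.40 at 3 days after contraction (adjusted p = 0.0122). The first call was kept with each array of the comparison left out in turn, and the other was lost without sample 435 or control sample 1 (adjusted p 0.0628 to 0.0701). The change at 3 days after freeze was 1.12 ± 0.40 (adjusted p = 0.0533), and 1.83 ± 0.29 without sample 436 (adjusted p = 1.62e-05).

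Slc10a6, a carrier of sulfated steroids, was 364, 150.2 and 232 at 6 hours after freeze, against 55.3, 104 and 89.9 in controls. All 3 injured arrays were above the controls, and the rise was 1.40 ± 0.34 (adjusted p = 0.0152), a call lost without sample 418, sample 446 or control sample 1 (adjusted p 0.0581 to 0.12). At 3 days after freeze it was 32.9 and 29.6, and 56.9 in sample 436, a change of -0.86 ± 0.34 (adjusted p = 0.0781) and of -1.08 ± 0.36 without sample 436 (adjusted p = 0.019). Slc16a1, the monocarboxylate carrier MCT1 of lactate and pyruvate, was called in no comparison with either set of arrays, and with all 25 arrays its change lay between -0.49 ± 0.36 at 7 days and 0.41 ± 0.32 at 6 hours after freeze. At 3 days after freeze it was -0.72 ± 0.33 without sample 436 (adjusted p = 0.0868).

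The 18 carriers of amines, organic ions, vitamins and nucleosides had 1 rise and 2 falls at 1 day after freeze, 0 rises and 2 falls at 3 days after freeze, 1 fall at 3 days after contraction and no call elsewhere with all 25 arrays. Of all probe sets 9.15% rose and 5.06% fell at 1 day, and 9.68% and 8.18% at 3 days after freeze. Without sample 436, 1, 2, 2 and 2 of the 18 carriers rose and 0, 2, 4 and 2 fell at the 4 times after freeze, and 1 rose at 6 hours and 2 rose and 1 fell at 3 days after contraction. Their median change was -0.39 at 3 days after freeze and -0.60 without sample 436. Slc23a2, which imports vitamin C, was 274, 335 and 244 at 1 day after freeze, against 138, 142 and 179.7 in controls. The groups did not overlap, and the rise was 0.84 ± 0.23 (adjusted p = 0.0179), a call lost without sample 460, control sample 1 or control sample 2 (adjusted p 0.0547 to 0.0805). At 6 hours the change was 0.73 ± 0.23 after freeze (adjusted p = 0.0681) and 0.84 ± 0.23 after contraction (adjusted p = 0.0615).

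Slc23a3, an orphan of the same family, was 95.5 and 106 at 3 days after freeze and 316 in sample 436, and 207, 160.1 and 165 at 3 days after contraction, against 432, 322 and 369.8 in controls. All 6 injured arrays were below the controls. The change was -1.25 ± 0.30 after freeze (2.37-fold lower, adjusted p = 0.0148), -1.76 ± 0.22 without sample 436, and -1.02 ± 0.30 after contraction (adjusted p = 0.0406). The call after freeze was lost without sample 450 or sample 468 (adjusted p 0.128 to 0.135), and that after contraction was lost with any 1 of the 6 arrays left out (adjusted p 0.0574 to 0.121). A dimmer probe set of the gene was not called at 3 days, with -0.47 ± 0.25 (adjusted p = 0.181) after freeze and -0.52 ± 0.25 (adjusted p = 0.188) after contraction.

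Slc22a5, or OCTN2, brings carnitine into muscle for fatty acid oxidation. It was 20.2, 8.8 and 41 at 1 day after freeze, against 54.4, 62.4 and 59.8 in controls, all 3 below the controls, a change of -1.08 ± 0.27 (2.12-fold lower, adjusted p = 0.0123) that was lost without sample 460 (adjusted p = 0.0806). Slc22a12, a urate carrier of kidney, was 36.8, 111 and 52.1 at that time, against 119, 159.6 and 128 in controls, a change of -1.0 ± 0.30 (adjusted p = 0.0322) lost without sample 422, sample 464, control sample 1, control sample 2 or control sample 3 (adjusted p 0.0541 to 0.147). Slc22a2, a carrier of organic cations, was 12.1 and 23.1 at 3 days after freeze and 20.8 in sample 436, against 42.3, 56.9 and 75.8 in controls, a change of -1.16 ± 0.39 (adjusted p = 0.0417) and -1.22 ± 0.43 without sample 436. Its arrays were all below the controls, and the call was lost with any 1 of the other 5 arrays left out (adjusted p 0.0588 to 0.21). Slc6a8, the creatine carrier, was 182 and 254 at 3 days after freeze and 470.0 in sample 436, against 364, 387 and 445 in controls, and fell only without sample 436 (-0.85 ± 0.21, adjusted p = 0.00261, against 0.175 with all 25 arrays). Slc44a1, a choline carrier counted above with the monocarboxylate and lipid carriers, rose without sample 436 at 3 days after freeze (2.43 ± 0.45, adjusted p = 0.000117, against 0.0583 with all 25 arrays). The brighter probe set of Slc29a1, the nucleoside carrier ENT1, also rose there without sample 436 (0.95 ± 0.22, adjusted p = 0.00107, against 0.0659 with all 25 arrays). The dimmer probe set of Slc29a1 went the other way, with -1.26 ± 0.43 (adjusted p = 0.02) without sample 436 and -0.88 ± 0.42 (adjusted p = 0.141) with it, so its probe sets do not share a direction.

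Of the 10 carriers of nucleotide sugars and the Golgi, Slc35a4 alone was called with all 25 arrays. It was 10.1, 28 and 4.4 at 1 day after freeze, against 48.8, 40.9 and 39.4 in controls, without overlap, a change of -1.13 ± 0.35 (adjusted p = 0.0367) that was lost without sample 422, sample 464, control sample 1, control sample 2 or control sample 3 (adjusted p 0.0674 to 0.173). Without sample 436, 1 fell at 1 day, 1 rose and 1 fell at 3 days and 1 fell at 7 days after freeze. Without sample 436, Slc35b2, which brings the sulfate donor PAPS into the Golgi, rose at 3 days after freeze (0.82 ± 0.20, adjusted p = 0.00164, against 0.0701 with all 25 arrays). Slc9a3r1 and Slc9a3r2 are no carriers but the scaffold proteins NHERF1 and NHERF2, which anchor carriers to the cytoskeleton. Slc9a3r1 was 457 and 461 at 3 days after freeze and 134 in sample 436, against 188, 125 and 93.4 in controls, and rose by 1.16 ± 0.36 (adjusted p = 0.0317), 1.72 ± 0.29 without sample 436. That call was lost without sample 450, sample 468, control sample 2 or control sample 3 (adjusted p 0.0715 to 0.212). Slc9a3r2 was 20.4, 22.8 and 44.6 at 6 hours after contraction, against 61.1, 82.5 and 98.3 in controls, all 3 below the controls, a change of -1.17 ± 0.28 (adjusted p = 0.0288) lost without sample 417, sample 431, control sample 2 or control sample 3 (adjusted p 0.094 to 0.152).

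The direct comparison asks at which times freeze and contraction differed. With all 25 arrays 0 of the 112 genes were called in freeze minus contraction at 6 hours, 1 day, 3 days or 7 days in limma. Of all probe sets 0.305% were called at 6 hours (0.252% higher and 0.0526% lower after freeze), 1.45% at 1 day (0.715% and 0.736%), 0.389% at 3 days (0.0421% and 0.347%) and 0.368% at 7 days (0.368% and 0%). A gene called after 1 injury and not after the other is therefore not shown to differ between them with all 25 arrays. Without sample 436 the genes higher and lower after freeze than after contraction numbered 6 and 0 at 6 hours (1.81% and 0.547% of the probe sets, 2.36% in all), and 5 and 4 at 1 day (6.42% and 3.72% of the probe sets, 10.1% in all). Later they were 9 and 7 at 3 days (8.85% and 8.1% of the probe sets, 16.9% in all) and 5 and 4 at 7 days (5.64% and 1.63% of the probe sets, 7.27% in all). Without sample 431 or sample 432, 1 gene was called at 6 hours, and without sample 460 or sample 464, 1 at 1 day.

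Slc11a1 was the gene called at all 4 times without sample 436, always higher after freeze, by 1.33 ± 0.33 at 6 hours, 1.70 ± 0.37 at 1 day, 2.25 ± 0.37 at 3 days, then 1.32 ± 0.37 at 7 days (adjusted p = 0.0324, 0.00387, 0.000196 and 0.0303). With all 25 arrays the same differences at 6 hours, 1 day and 7 days had adjusted p = 0.576, 0.242 and 0.497, and the difference at 3 days was 1.03 ± 0.62 (adjusted p = 0.763). Slc7a7 was higher after freeze at 1, 3 and 7 days without sample 436, by 1.80 ± 0.46, 2.56 ± 0.46 and 1.86 ± 0.46 (adjusted p = 0.0133, 0.000472 and 0.0142), and with all 25 arrays the adjusted p was 0.26, 0.688 and 0.376. Slc2a1 at 6 hours differed by 1.50 ± 0.40 (adjusted p = 0.0492 without sample 436 and 0.198 with it), and the arrays overlapped. The summed macrophage markers were higher after freeze at each time apart from sample 436, at 1452 to 2952 in freeze and 461 to 888 in contraction muscles at 6 hours, and at 5516 to 8194 in freeze and 1058 to 1639 in contraction muscles at 1 day. At 3 days they were 24911 to 25773 in freeze muscles without sample 436, which gave 242, and 8456 to 12675 in contraction muscles. At 7 days they were 6879 to 7400 in freeze and 1359 to 2791 in contraction muscles. Their part in the differences was not tested.

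Slc1a4, or ASCT1, a carrier of alanine, serine and cysteine, was 86.9 and 69.5 at 3 days after freeze with 32.2 in sample 436, and 16.5, 20 and 15.8 in contraction muscles. At 7 days it was 75.1 and 97.5 after freeze and 17.3, 20 and 23.4 after contraction, with 34.1, 64.2 and 32.8 in controls. The injuries did not overlap at either time. The difference was 1.24 ± 0.35 at 3 days (adjusted p = 0.191, and 0.0037 without sample 436) and 1.57 ± 0.40 at 7 days (adjusted p = 0.0821, and 0.00871 without sample 436), although neither injury was called against control at these times.

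Lower after freeze at 7 days without sample 436 were Slc27a1 (-0.95 ± 0.20, adjusted p = 0.005, and 0.0555 with all 25 arrays), Slc25a51 (-1.14 ± 0.32, adjusted p = 0.0307, and 0.195, on its brighter probe set), and Slc25a11 (-0.75 ± 0.21, adjusted p = 0.0324, and 0.539). Slc25a45 was 12.7 and 11.3 after freeze and 103, 65.8 and 60.1 after contraction at that time, with 33.5, 32.6 and 81.7 in controls, a difference of -1.81 ± 0.43 (adjusted p = 0.0638, and 0.00933 without sample 436). These groups of 7 days did not overlap. At 3 days Slc38a5 differed by -1.72 ± 0.40 (adjusted p = 0.0041 without sample 436, and 0.718 with it), Slc25a4 by -1.09 ± 0.23 (adjusted p = 0.00166, and 0.939), and Slc35e4 by -1.15 ± 0.26 (adjusted p = 0.00333, and 0.186). Slc35e4 was 137 and 101 after freeze, 199.5 in sample 436 and 413, 185 and 281 after contraction at 3 days. At 1 day Slc22a12 and Slc22a5 differed by -1.14 ± 0.33 and -1.03 ± 0.30 (adjusted p = 0.0275 and 0.0318 without sample 436, 0.0948 and 0.095 with it). Slc22a12 was 151 and 149.7 and Slc22a5 52.1 and 60.5 after contraction at 1 day, so that both freeze groups lay below them.

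The other genes with the largest differences in either direction were not called between the injuries at the times given here with either set of arrays. They were picked for these differences on the same arrays, so a lack of overlap between the injuries adds no support. The share of all probe sets without overlap was not counted. At 6 hours Slc27a5, a bile acid CoA ligase of liver, was 8.5, 8 and 10.0 after freeze and 17.2, 27.2 and 46 after contraction (-0.93 ± 0.42, adjusted p = 0.555). Slc6a2, the noradrenaline carrier, was 44.1, 40.9 and 15.9 after freeze and 51.2, 98.3 and 67.6 after contraction (-0.90 ± 0.45, adjusted p = 0.634). Slc25a25 was 282, 469.7 and 348 after freeze and 800.2, 629 and 617 after contraction (-0.89 ± 0.38, adjusted p = 0.498). In these 3 genes all freeze arrays of 6 hours lay below all contraction arrays. Slc27a4, a fatty acid carrier, was 89.5, 106 and 32.8 after freeze and 25.9 and 24.7 after contraction at 1 day (1.10 ± 0.50, adjusted p = 0.295). Slc2a5, the fructose carrier, was 40.1 and 49.7 after freeze with 79.7 in sample 436, and 10.4, 8.1 and 8.6 after contraction at 3 days (1.62 ± 0.56, adjusted p = 0.333). Slc7a9, a carrier of cystine, was 5.9 and 30.2 after freeze and 59.6, 58.6 and 35.2 after contraction at 7 days (-1.14 ± 0.45, adjusted p = 0.344). In these 3 comparisons the injuries did not overlap either, but the controls overlapped both injuries in Slc2a5 and Slc7a9, at 9.4, 62.8 and 68.4 for Slc2a5 and 59.4, 19.5 and 44.1 for Slc7a9. Slc2a1 differed by -0.89 ± 0.43 at 3 days (adjusted p = 0.64).

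The 36 genes below the filter had a highest signal of 3.7 to 59.8 on any array. Closest to passing were Slc7a11, the cystine and glutamate exchanger, which reached 59.8 and was above the 40th percentile on 1 array, with Slc25a48 (48.8) and Slc7a6 (47.8). Just inside were Slc30a1, a zinc exporter, on 2 arrays, and Slc10a1 and Slc27a5 on 3 each. Among the genes not tested, Slc7a1, the main carrier of arginine in most cells, was above it on 0 arrays and reached 20.9.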

How the data were processed

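RNA of mouse tibialis anterior was measured on 25 Affymetrix U74Av2 arrays in 9 groups. The deposited values are intensity signals that the authors made with MAS5, per the submitters' processing notes, scaled so that the 2% trimmed mean was 150.1 on every array; the MAS5 version is not given in the sources used here. From 12488 probe sets, 66 control probe sets were left out, and 10855 had 1 annotated symbol, 396 several and 1237 none in the platform annotation. Arrays carry no count depth, so their number limits the precision.

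The filter kept the 9506 probe sets that exceeded the 40th percentile (33.4 to 42.5 units by array) on 2 or more arrays. Log2(signal + 13), where 13 is the 20th percentile, was fitted in limma 3.58.1 (R 4.3.3) with 9 group means and trended eBayes, and Benjamini-Hochberg adjustment ran over the 9506 probe sets in each of 12 comparisons. The fit was tested on simulated data. Tables and figures used Python 3.11.15, pandas 2.3.3 and matplotlib 3.10.9. Alternatives were an offset of 32 units, the 60th percentile, no filter, quantile normalization, only the compared groups, the lowest probe set of a gene, each array left out, and pairs of adjacent sample numbers as a block.

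The genes given sample by sample were the 4 largest called rises and falls against control in each comparison, the 3 largest differences in each direction between the injuries, and listed representatives of each class. The solute carrier genes, the lists and this rule were chosen with earlier results of these data known.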

Additional observations from a re-analysis of the deposited data

Results flagged for a closer look

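Without sample 436, 3 solute carrier genes were called in opposite directions at different times after the same injury, with every array above all controls at 1 time and below them at the other. They were chosen for these calls, so the differences between times are descriptions on the log2 scale, given with their standard errors. No p-value is given for these differences, as it would rest on the same choice. The share of all probe sets that meet the same rule was not counted, so such reversals may be as common elsewhere on the array. Slc10a6, the carrier of sulfated steroids, had signals of 32.9 and 29.6 at 3 days after freeze, 56.9 in sample 436, and 364, 150.2 and 232 at 6 hours, against 55.3, 104 and 89.9 in controls. The difference of 3 days minus 6 hours was -2.48 ± 0.36 without sample 436 and -2.26 ± 0.34 with all 25 arrays.

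Slc38a10, a member of the amino acid carrier family of Slc38a2, had 487 and 533 at 3 days after freeze, 233 in sample 436, 157, 246 and 239 at 1 day and 193, 156 and 174 at 6 hours, against 266, 354 and 332 in controls. Without sample 436 it lay below the controls at the early times and above them at 3 days. The difference of 3 days minus 6 hours was 1.48 ± 0.20 without sample 436 and 1.12 ± 0.24 with all 25 arrays. The difference of 3 days minus 1 day was 1.23 ± 0.20 without sample 436 and 0.87 ± 0.24 with all 25 arrays.

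Slc3a2, the heavy chain of the LAT1 exchanger, had 185, 204 and 212 at 7 days and 600.2, 433 and 524 at 3 days after contraction, against 367, 338 and 319 in controls. The arrays of 7 days were below all controls and those of 3 days above them. The difference of 7 days minus 3 days was -1.31 ± 0.18 without sample 436 and -1.31 ± 0.30 with all 25 arrays.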

How the results depend on the processing

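Of 49 calls of a gene against control, 6 held under each alternative run for it, which left out the block for all and the 60th percentile for 4 of the 49 genes and times. They were those of Slc10a3, Slc2a1 and Slc39a7 at 1 day and Slc20a1 and Slc66a2 at 6 hours and Slc27a1 at 7 days after freeze. The number of solute carrier genes called with 1 array left out in turn ranged from 3 to 13 at 6 hours, 6 to 28 at 1 day, 0 to 44 at 3 days and 1 to 20 at 7 days after freeze, and from 2 to 7, 1 to 4, 0 to 23 and 0 to 2 at those times after contraction. For freeze minus contraction it ranged from 0 to 6 at 6 hours, 0 to 9 at 1 day, 0 to 16 at 3 days and 0 to 9 at 7 days, and for the F test from 25 to 58. The highest value of each range was that without sample 436. When only the compared groups were fitted, which leaves fewer arrays for the spread, the number called was 9 at 6 hours, 0 at 3 days and 8 at 7 days after freeze, and 1, 1 and 0 at 6 hours, 1 day and 7 days after contraction, and for freeze minus contraction it was 8 at 1 day and 9 at 7 days. With quantile normalization it was 8 at 6 hours after freeze and 1 for freeze minus contraction at 7 days. The lowest probe set of each gene gave 1 at 7 days after freeze and 1 at 1 day after contraction, no filter gave 4 at 3 days after contraction, 32 units gave 1 for freeze minus contraction at 6 hours, and the 60th percentile gave 1 at 6 hours and 1 at 7 days. The direction turned only with the lowest probe set, for Slc38a2 (-0.76 at 1 day and -0.36 at 3 days after contraction, -0.61 at 1 day and -0.75 at 7 days after freeze) and for Slc39a1 (-0.27 at 1 day after freeze), where that probe set was dim and not called. The cause of the other shifts was not tested. With pairs of adjacent sample numbers as a replicate block, 0 genes were called in each of the 4 freeze minus contraction comparisons, as without it, and the consensus correlation over 10 pairs was -0.09. Groups of 2 or 3 arrays and dim signals limit what could be called.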
